A study of Rattus norvegicus with 9 samples.

Results

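This account covers the receptor genes for glutamate, GABA, glycine and nicotinic acetylcholine signalling in primary cultures of rat pinealocytes, which make melatonin. The members were all genes whose symbol belongs to the AMPA (Gria), kainate (Grik), delta (Grid), NMDA (Grin), metabotropic glutamate (Grm), GABA-A (Gabr), GABA-B (Gabbr), glycine (Glr) or nicotinic (Chrn) receptor families, 68 of 26854 genes in the deposited tables. By its symbol alone the choice also took in 1 gene for a binding protein that is not itself a receptor. The study sequenced 9 libraries in 3 groups of 3: an siRNA against Bsx (siBsx), an siRNA against Lhx4 (siLhx4) and a non-targeting siRNA (siNT). All groups were primary cultures from adult Sprague-Dawley rats, transfected with 40 nM of a single Stealth siRNA by lipofection, given fresh medium at 24 h and harvested on day 3. Lhx4 and Bsx encode homeodomain transcription factors of the pineal gland. Each knockdown was set against siNT to ask which transcripts follow each factor. Since each gene was targeted by 1 siRNA, what the sequence of that siRNA did besides lowering its target cannot be told apart.

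Fast transmitter receptors are assembled from several subunits around an ion channel. AMPA, kainate and NMDA receptors are tetramers opened by glutamate, whereas nicotinic, GABA-A and glycine receptors are pentamers opened by acetylcholine, GABA or glycine. Metabotropic glutamate and GABA-B receptors act through G proteins instead. In rat pinealocytes, acetylcholine acting on nicotinic receptors depolarizes the cell and triggers release of glutamate, and glutamate acting back on the cells through metabotropic receptors lowers melatonin synthesis.

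Both siRNAs lowered their targets. Lhx4 stood at 3420, 3634 and 3551 normalized counts in the siLhx4 libraries, against 18963, 18331 and 19156 in the siNT libraries, without overlap (two-sided exact permutation p = 0.1, the smallest that 3 against 3 libraries allow). Bsx changed by -79.3% with siBsx and by -44.8% with siLhx4 in the authors' deposited tables (adjusted DESeq2 p = 5.25e-294 and 3.23e-44). Lhx4 changed by 10.5% with siBsx in the authors' deposited table (adjusted DESeq2 p = 0.0225). Since siLhx4 lowered both transcripts, changes that follow Lhx4 and changes that follow Bsx cannot be told apart in that group. The cells carried the markers of pinealocytes in every group, with group means of at least 972 normalized counts for all 8 marker genes. The 10 neuron markers summed to 50576 normalized counts in siBsx, 48413 in siLhx4 and 51794 in siNT, most of it Snap25, a vesicle fusion protein, at 43125, 39996 and 45924. Of the 6 tested neuron markers, 2 rose and 0 fell with siBsx and 2 rose and 1 fell with siLhx4, with Map2 at 6434, 7430 and 5020 in siBsx, siLhx4 and siNT and Nefm at 532, 400.2 and 286, while Rbfox3, Elavl3 and Dcx stayed under 20. The 7 skeletal muscle markers found summed to 171 normalized counts in siBsx, 213 in siLhx4 and 202 in siNT, and Acta1, Tnnt3 and Myog stayed under 20. Astrocyte markers summed to 8661 normalized counts in siBsx, 12424 in siLhx4 and 10542 in siNT. Fibroblast markers summed to 1928, 3544 and 2367, and mural markers to 3602, 9917 and 7091, in the same order. These 3 sums were lowest in siBsx and highest in siLhx4. Of the fibroblast markers, Thy1 had the reverse order, at 30.9, 18.5 and 26.1, and Dcn was lowest in siNT, at 41.3, 57.4 and 37.0. The other fibroblast markers had the order of the sum. Of the 8 tested fibroblast markers, 0 rose and 2 fell with siBsx, and 3 rose and 0 fell with siLhx4. Most of the mural sum was Myh11, at 2953, 8932 and 6201. Pdgfrb and Cspg4 also had the order of the sum, whereas Tagln had the reverse order, at 128, 107 and 117. Des was lowest in siNT, at 48.5, 79.2 and 45.6, and Kcnj8 highest in siNT, at 20.5, 28.6 and 36.4. Acta2 and Rgs5 stayed under 20 in every group. Of the 5 tested mural markers, 0 rose and 2 fell with siBsx, and 1 rose and 0 fell with siLhx4. Of 10 astrocyte markers 8 were tested, of which 0 rose and 4 fell with siBsx and 3 rose and 0 fell with siLhx4, and Gfap and Aqp4 stayed under 20 normalized counts in every group. Of the pinealocyte markers, 4 rose and 3 fell with siBsx, and 0 rose and 5 fell with siLhx4. Microglial markers summed to 885 normalized counts in siBsx, 870 in siLhx4 and 930 in siNT, endothelial markers to 901, 1226 and 878, and Schwann cell markers to 746, 852 and 689. In bulk RNA, fewer cells of a type and less RNA per cell cannot be told apart, and the part of these shifts in the receptor results was not tested.

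Values per library were deposited for 14 genes, of which 0 are receptor genes. Each receptor is therefore described by its group means and by the authors' log2 fold change over siNT with its standard error (SE). The authors list SEs for siBsx only. Every SE given with siLhx4 was derived here from their fold change and p-value. Group means are normalized counts, that is, reads scaled by a size factor per library, and were derived from the mean and fold change in each table. They are not scaled by transcript length and so are compared between groups, not between genes. Of the 68 receptor genes, 27 had an adjusted p in the authors' deposited tables and are called tested here. The other 41, all with a mean of the 3 group means of at most 27.9 normalized counts, had none. The lowest tested gene, Glra4, stood at 29.0 on the same measure.

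With siBsx, 4 of the 27 tested receptor genes rose and 3 fell at an adjusted p under 0.05 by the authors' DESeq2 test. These are 25.9% of the 27, against 17.2% of all genes tested in that comparison, of which 7.59% rose and 9.61% fell. With siLhx4, 3 rose and 4 fell, again 25.9%, against 17.7% of all genes tested, of which 8.07% rose and 9.59% fell. The median log2 fold change of the 27 was -0.07 with siBsx and -0.16 with siLhx4, where all tested genes had medians of 0.0002 and 0.003. Calls were more frequent at high levels. Among the 10 receptor genes averaging 500 normalized counts or more, 6 were called with each siRNA, where 25.1% (siBsx) and 24.8% (siLhx4) of all genes at that level were called. Among the 17 tested between 20 and 500, 1 was called with each, where the shares of all genes were 6.82% and 8.19%. Of these calls, 1 with siBsx (Grin2c) and 2 with siLhx4, among them Chrnb4, passed when p-values were taken from a t distribution with 6 degrees of freedom, and 0 passed with 4 (36 and 0 of all genes with siBsx and siLhx4). At 4 degrees of freedom the target Lhx4 did not pass with siLhx4 either. The 2 comparisons share the siNT libraries, so their values are given side by side and not counted as independent of each other.

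**Figure D1:**
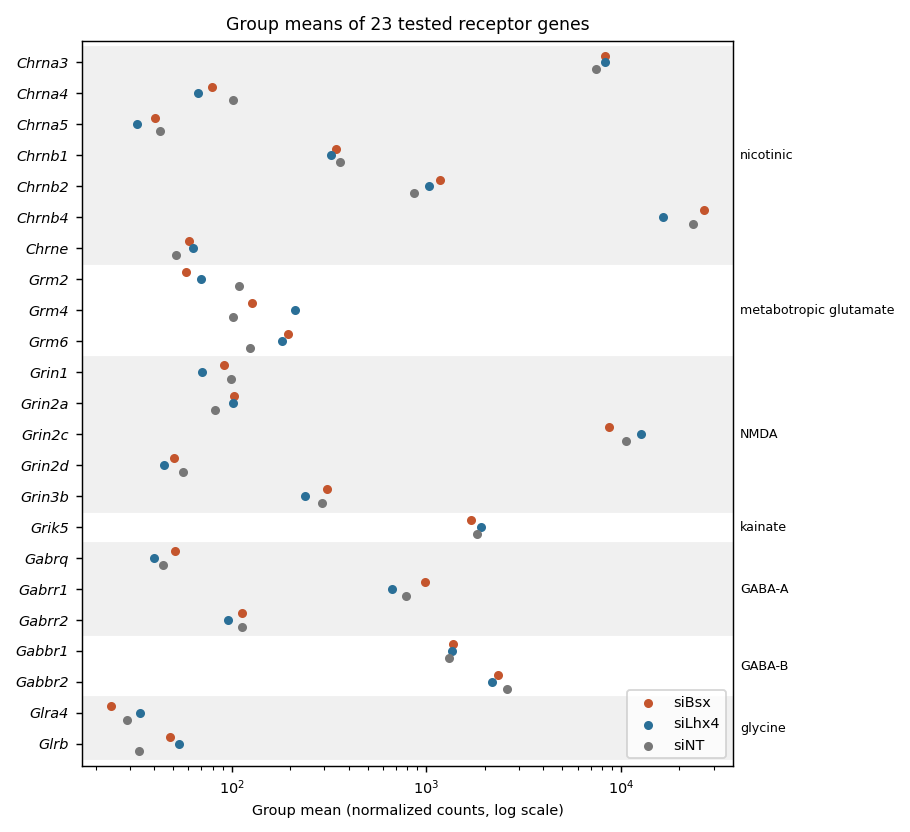
Group means of 23 tested receptor genes in normalized counts (horizontal axis, log scale), 1 row per gene, grouped by family, with a dot each for siBsx, siLhx4 and siNT; no error bars are drawn because values per library were not used for these genes. Chrnb4 stands at 26634 in siBsx, 16488 in siLhx4 and 23449 in siNT, and Grin2c at 8701, 12649 and 10618.

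The nicotinic gene Chrnb4 had the smallest adjusted p among the receptor genes with siLhx4. Chrnb4, the beta4 subunit that pairs with alpha3 in ganglionic receptors, averaged 26634 normalized counts in siBsx, 16488 in siLhx4 and 23449 in siNT. It rose with siBsx by 0.18 ± 0.055 (log2, SE) and fell by 0.51 ± 0.055 with siLhx4, a change of -29.7%, in the authors' deposited tables (adjusted DESeq2 p = 0.00756 and 4.79e-18). Its partner Chrna3 averaged 8264 normalized counts in siBsx, 8324 in siLhx4 and 7449 in siNT. The log2 fold changes of Chrna3 were 0.15 ± 0.071 with siBsx and 0.16 ± 0.071 with siLhx4 in the authors' deposited tables, and neither passed (adjusted DESeq2 p = 0.143 and 0.104). Both 95% intervals of Chrna3, from 0.01 to 0.29 and from 0.02 to 0.30, lay above 0. The partner subunits thus had values of opposite sign with siLhx4, and the difference between the 2 genes was not itself tested.

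Chrnb2, the beta2 subunit of brain nicotinic receptors, rose with both siRNAs. Its group means were 1175 normalized counts in siBsx, 1034 in siLhx4 and 865 in siNT, and its log2 fold changes were 0.44 ± 0.097 with siBsx and 0.26 ± 0.097 with siLhx4 in the authors' deposited tables (adjusted DESeq2 p = 9.1e-05 and 0.0454). The siLhx4 call was lost without the filter on low means. Of the 15 nicotinic genes, 7 were tested and the other 5 did not pass with either siRNA. Among them, Chrna4, which pairs with beta2, averaged 79.5 normalized counts in siBsx, 67.5 in siLhx4 and 102 in siNT, and the accessory subunit Chrna5 averaged 40.2, 32.5 and 43.0. The muscle-type subunits Chrnb1 (345 normalized counts in siBsx, 324 in siLhx4 and 361 in siNT) and Chrne (60.6, 63.5 and 52.0) were tested, whereas Chrna1 and Chrnd stood at 4.85 to 10.6 in every group. The homomeric alpha7 subunit Chrna7 averaged 22.2 normalized counts in siBsx, 26.5 in siLhx4 and 18.9 in siNT and had no adjusted p.

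Chrna5, Chrna3 and Chrnb4 lie next to each other on rat chromosome 8, and the promoters of Chrnb4 and Chrna3 are printed because these neighbours, which encode partner subunits, differed in their values. The windows run from 250 bases before to 50 after the annotated start (RefSeq, build GRCr8, 5′ to 3′ on the strand of the gene), with capitals marking the GC box GGGCGG on either strand.
Chrnb4, chr8:64333060-64333359, minus strand: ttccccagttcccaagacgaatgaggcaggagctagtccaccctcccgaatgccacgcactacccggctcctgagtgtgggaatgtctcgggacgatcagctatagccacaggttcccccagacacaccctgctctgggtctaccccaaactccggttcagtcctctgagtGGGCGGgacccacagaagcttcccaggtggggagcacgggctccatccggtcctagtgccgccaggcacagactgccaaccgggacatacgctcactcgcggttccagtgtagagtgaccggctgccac
Chrna3, chr8:64311202-64311501, minus strand: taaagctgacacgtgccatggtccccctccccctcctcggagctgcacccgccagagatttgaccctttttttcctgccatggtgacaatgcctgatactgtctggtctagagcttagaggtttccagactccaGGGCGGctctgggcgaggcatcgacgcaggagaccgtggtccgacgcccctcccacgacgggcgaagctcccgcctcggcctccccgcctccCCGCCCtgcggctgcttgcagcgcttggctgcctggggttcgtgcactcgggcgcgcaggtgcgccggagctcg
The Chrnb4 window holds 1 GC box and the Chrna3 window 2. Neither holds the homeodomain core TAATTA, the letters TAATCC bound by photoreceptor homeodomain proteins, or the cAMP response element TGACGTCA. These motifs were searched on both strands, and matches of different motifs may overlap. Promoters were listed for 19 of the 27 tested receptor genes, of which 12 (63.2%) hold a GC box, and for 47 of all 68, of which 23 (48.9%) hold one, against 33.1% of all 33469 promoters of the same length, expressed or not. TAATTA occurs in 1 of the 19 (Chrnb1) and in 5.36% of all promoters, TAATCC in 2 of the 19 (Chrne and Gabrr2) and in 7.17% of all, and TGACGTCA in 0 of the 19 and in 1.83% of all. The RefSeq gene table of GRCr8 lists a non-coding gene, LOC120094166, that overlaps both Chrna3 and Chrnb4 from the plus strand. Since the strand setting of the counting was not given in the sources used here, reads of that gene cannot be told apart from theirs. Of the 27 tested receptor genes, 16 have a span that overlaps the span of another gene in that table. Apart from LOC120094166, neither strand nor exons were compared for these overlaps, so whether reads are shared was not tested. Chrna4, Chrnb1, Chrne, Grin1, Grin2d and Grin3b overlap protein-coding genes, Gabbr2, Gabrr2, Glra4 and Grin2a long non-coding genes, Chrna5 a pseudogene and Gabrr1 a small nuclear RNA gene.

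Metabotropic glutamate receptors fall into groups I, II and III. Grm5, of the group that couples to phospholipase C, stood at 4.36, 7.73 and 3.15 normalized counts in siBsx, siLhx4 and siNT, too low for an adjusted p. The group III receptors, which lower cAMP through inhibitory G proteins, were higher where they passed. Grm4 averaged 127 normalized counts in siBsx, 212 in siLhx4 and 101 in siNT. It rose 2.09-fold with siLhx4, by 1.07 ± 0.23 (log2, SE) in the authors' deposited table (adjusted DESeq2 p = 5.9e-05), a larger fold change than in any other called receptor gene. With siBsx, the log2 fold change of Grm4 was 0.34 ± 0.24 in the authors' deposited table and did not pass (adjusted DESeq2 p = 0.39). Grm6, the receptor of retinal ON bipolar cells, averaged 194 normalized counts in siBsx, 181 in siLhx4 and 124 in siNT. It rose 1.57-fold with siBsx, by 0.65 ± 0.23 in the authors' deposited table (adjusted DESeq2 p = 0.0305). This call was lost without the filter on low means. The siLhx4 value of Grm6 was 0.55 ± 0.23 in the authors' deposited table and did not pass (adjusted DESeq2 p = 0.0804). The remaining members of the group, Grm7 and Grm8, had group means from 2.61 to 14.9 normalized counts and no adjusted p.

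Group II receptors also lower cAMP, and Grm3 is the member described in rat pinealocytes as mediating the effect of glutamate on melatonin. Grm3 stood at 22.3 normalized counts in siBsx, 27.4 in siLhx4 and 20.7 in siNT. Its log2 fold changes, 0.10 ± 0.56 with siBsx and 0.40 ± 0.55 with siLhx4 in the authors' deposited tables, had no adjusted p. The 95% interval of the siBsx value ran from -1.003 to 1.20. Grm2 averaged 58.3 normalized counts in siBsx, 69.8 in siLhx4 and 109 in siNT. Its log2 fold change of -0.90 ± 0.36 with siBsx just missed the threshold and that of -0.64 ± 0.35 with siLhx4 did not pass, in the authors' deposited tables (adjusted DESeq2 p = 0.0601 and 0.218).

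**Figure D2:**
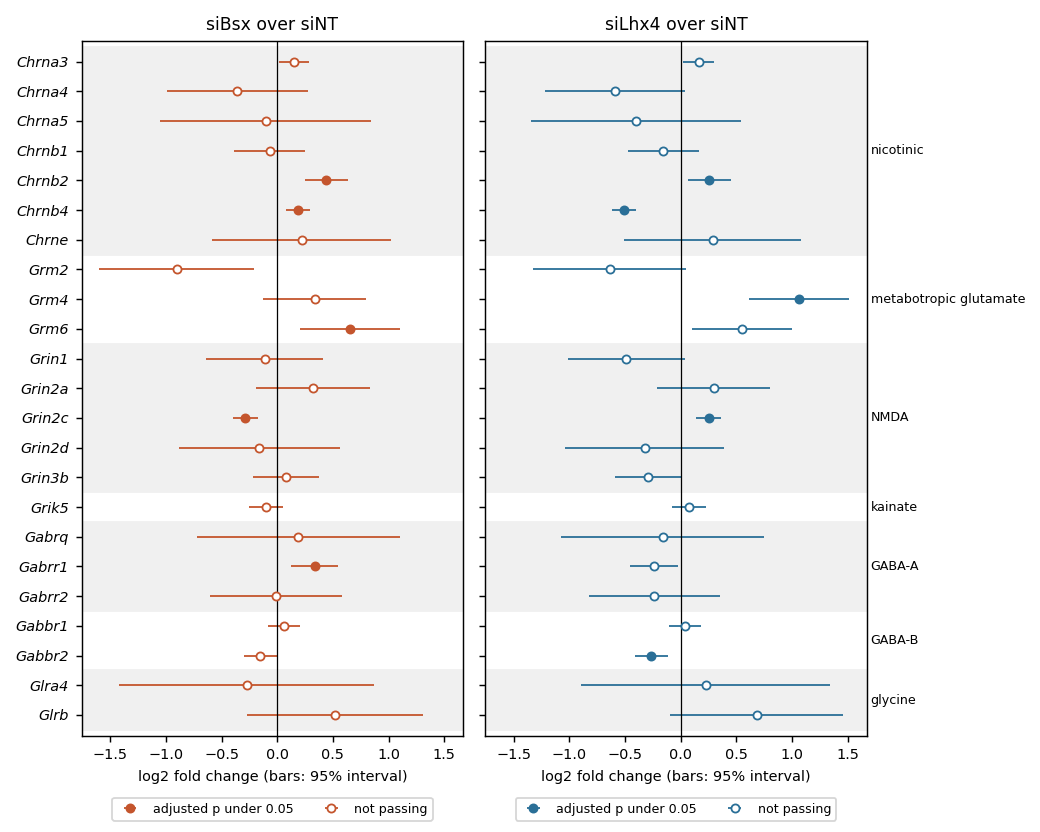
Log2 fold changes over siNT of 23 tested receptor genes with siBsx (left) and siLhx4 (right), with 95% intervals; filled symbols passed an adjusted p of 0.05. Chrnb4 and Grin2c passed in both panels on opposite sides of 0, and Chrnb2 passed in both above 0.

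Among the 5 tested NMDA receptor genes, Grin2c passed, with opposite signs in the 2 knockdowns, and the other 4 passed in neither. Grin2c encodes a glutamate-binding subunit that gives channels with weak magnesium block and is known from cerebellar granule cells and astrocytes. It averaged 8701 normalized counts in siBsx, 12649 in siLhx4 and 10618 in siNT. The transcript fell by 0.29 ± 0.058 on the log2 scale with siBsx and rose by 0.25 ± 0.057 with siLhx4 in the authors' deposited tables (adjusted DESeq2 p = 1.22e-05 and 0.000163), changes of -18.0% and 19.1%. Summed astrocyte markers had the same order of groups, lowest in siBsx and highest in siLhx4. Of the single markers, Glul, Apoe, Aldoc and Sox9 had this order. Gja1, Slc1a3, S100b and Gfap were highest in siNT, and Slc1a2 and Aqp4 in siBsx. The part of astrocyte markers in the Grin2c values was not tested. NMDA receptors need the glycine-binding subunit Grin1 to reach the surface. Grin1 averaged 91.4 normalized counts in siBsx, 70.8 in siLhx4 and 99.2 in siNT and did not pass (adjusted DESeq2 p = 0.85 and 0.221 in the authors' deposited tables). Grin3b, a second glycine-binding type, averaged 308 normalized counts in siBsx, 237 in siLhx4 and 292 in siNT, and Grin2a and Grin2d had group means from 45.1 to 103, none of them passing. Grin2b and Grin3a, with group means from 4.28 to 17.4, had no adjusted p. The promoter of Grin2c is printed as that of the NMDA gene with a change in both comparisons (RefSeq, GRCr8), and no capitals occur because it holds none of the 4 motifs.
Grin2c, chr10:101005089-101005388, minus strand: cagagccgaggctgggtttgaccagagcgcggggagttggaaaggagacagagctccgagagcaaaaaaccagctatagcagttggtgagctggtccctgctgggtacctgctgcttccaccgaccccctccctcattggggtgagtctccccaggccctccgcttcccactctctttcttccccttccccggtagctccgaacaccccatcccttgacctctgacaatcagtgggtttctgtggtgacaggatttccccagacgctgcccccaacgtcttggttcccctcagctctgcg

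AMPA and kainate receptors carry fast excitation. All 4 AMPA genes were too low for an adjusted p. Gria2, whose edited subunit makes the channel impermeable to calcium, stood at 31.9 normalized counts in siBsx, 19.97 in siLhx4 and 31.7 in siNT, and Gria1, described in rat pinealocytes, at 11.0, 7.53 and 8.04. Gria3 and Gria4 lay between 8.14 and 20.4. Of the 5 kainate genes, Grik5, which forms channels only together with other kainate subunits, was the tested one. It averaged 1696.5 normalized counts in siBsx, 1912 in siLhx4 and 1816 in siNT and passed with neither siRNA, with 95% intervals from -0.25 to 0.05 for siBsx and from -0.08 to 0.22 for siLhx4 (log2). Its possible partners Grik1, Grik2, Grik3 and Grik4 had group means from 4.33 to 22.5 normalized counts. The 3 genes of the delta group had no adjusted p. Among them, Grid1, which binds cerebellins rather than glutamate, stood at 11.6 normalized counts in siBsx, 27.5 in siLhx4 and 17.7 in siNT.

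GABA-A receptors are built from many kinds of subunit, and 6 of their 19 genes were tested. Gabrr1, the rho1 subunit that forms the slow GABA receptors of the retina, averaged 991 normalized counts in siBsx, 664 in siLhx4 and 784 in siNT. It rose by 0.33 ± 0.11 with siBsx in the authors' deposited table (adjusted DESeq2 p = 0.0148), and its value with siLhx4, -0.24 ± 0.11, did not pass there (adjusted DESeq2 p = 0.117). Gabrr2, the neighbouring rho2 gene on chromosome 5, averaged 113 normalized counts in siBsx, 96.4 in siLhx4 and 114 in siNT and did not pass. Its 95% interval with siBsx, from -0.60 to 0.58 (log2), holds the value of Gabrr1, and the difference between the 2 genes was not tested.

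Gabrq, the theta subunit, averaged 51.1 normalized counts in siBsx, 39.8 in siLhx4 and 44.5 in siNT and did not pass. Gabrb1 averaged 25.8 normalized counts in siBsx, 19.7 in siLhx4 and 35.7 in siNT without an adjusted p. The other 12 GABA-A genes without an adjusted p had group means of at most 19.2 normalized counts. The promoters of the rho genes are shown because these neighbours code for subunits of 1 receptor type and lie next to each other (RefSeq, GRCr8, with capitals marking TAATCC as read on the other strand).
Gabrr1, chr5:52320225-52320524, plus strand: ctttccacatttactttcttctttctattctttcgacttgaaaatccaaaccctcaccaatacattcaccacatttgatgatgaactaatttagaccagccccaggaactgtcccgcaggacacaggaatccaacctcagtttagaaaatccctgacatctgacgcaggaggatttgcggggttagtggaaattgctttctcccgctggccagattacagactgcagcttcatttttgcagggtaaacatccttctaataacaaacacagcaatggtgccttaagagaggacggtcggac
Gabrr2, chr5:52248228-52248527, plus strand: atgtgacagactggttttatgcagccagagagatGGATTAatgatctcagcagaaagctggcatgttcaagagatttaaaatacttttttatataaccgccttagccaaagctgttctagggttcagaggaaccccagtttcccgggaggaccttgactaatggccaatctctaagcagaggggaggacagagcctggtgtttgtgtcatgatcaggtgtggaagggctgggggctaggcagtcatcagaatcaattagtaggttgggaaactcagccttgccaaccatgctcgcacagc
The Gabrr2 window holds 1 such match and the Gabrr1 window none of the 4 motifs searched. A match is a description of the letters and not a binding site.

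GABA-B receptors are pairs of Gabbr1, which binds GABA, and Gabbr2, which couples to the G protein. Gabbr2 averaged 2348 normalized counts in siBsx, 2174 in siLhx4 and 2612 in siNT. It fell by 0.26 ± 0.075 on the log2 scale with siLhx4 in the authors' deposited table (adjusted DESeq2 p = 0.00416), a change of -16.7%, and its value with siBsx, -0.15 ± 0.075, did not pass there (adjusted DESeq2 p = 0.163). Gabbr1 averaged 1365 normalized counts in siBsx, 1350.4 in siLhx4 and 1312 in siNT. Its 95% intervals, from -0.09 to 0.20 with siBsx and from -0.10 to 0.19 with siLhx4 (log2), did not hold the value of Gabbr2 in the same knockdown, and the difference between the 2 genes was not itself tested. Of the glycine receptor genes, the shared beta subunit Glrb averaged 48.0 normalized counts in siBsx, 53.8 in siLhx4 and 33.5 in siNT, with log2 fold changes of 0.52 ± 0.40 and 0.68 ± 0.40 in the authors' deposited tables that did not pass (adjusted DESeq2 p = 0.453 and 0.259). Glra4 did not pass either, and Glra1, Glra2 and Glra3, the ligand-binding alpha subunits, had group means of at most 8.80.

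The siBsx and siLhx4 groups were then compared with each other with a Wald statistic built from both tables, in which the siNT mean cancels. Of the 27 tested receptor genes, 3 were higher and 2 lower in siBsx than in siLhx4, 18.5% against 22.7% of all genes tested, of which 10.8% were higher and 11.9% lower. The share of called receptors was not above that of all genes. Chrnb4 was 1.62-fold higher in siBsx than in siLhx4, a log2 difference of 0.69 ± 0.055 (SE; rebuilt Wald test, adjusted p = 9.33e-34). Gabrr1 was 1.49-fold higher, 0.57 ± 0.11 (rebuilt Wald test, adjusted p = 2.09e-06). Grin2c was lower in siBsx by a log2 difference of -0.54 ± 0.058 and Grm4 by -0.73 ± 0.23 (rebuilt Wald test, adjusted p = 4.08e-19 and 0.00895). Chrnb2, Grm6 and Gabbr2 did not differ past the threshold (adjusted p = 0.171, 0.815 and 0.328 by the same rebuilt Wald test). The 95% interval of the difference ran for Chrnb2 from -0.01 to 0.37 and for Grm6 from -0.34 to 0.55. Grm4, Gabrr1, Grm6 and Gabbr2 each passed with a single siRNA, and of these the test between knockdowns called Grm4 and Gabrr1.

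**Figure D3:**
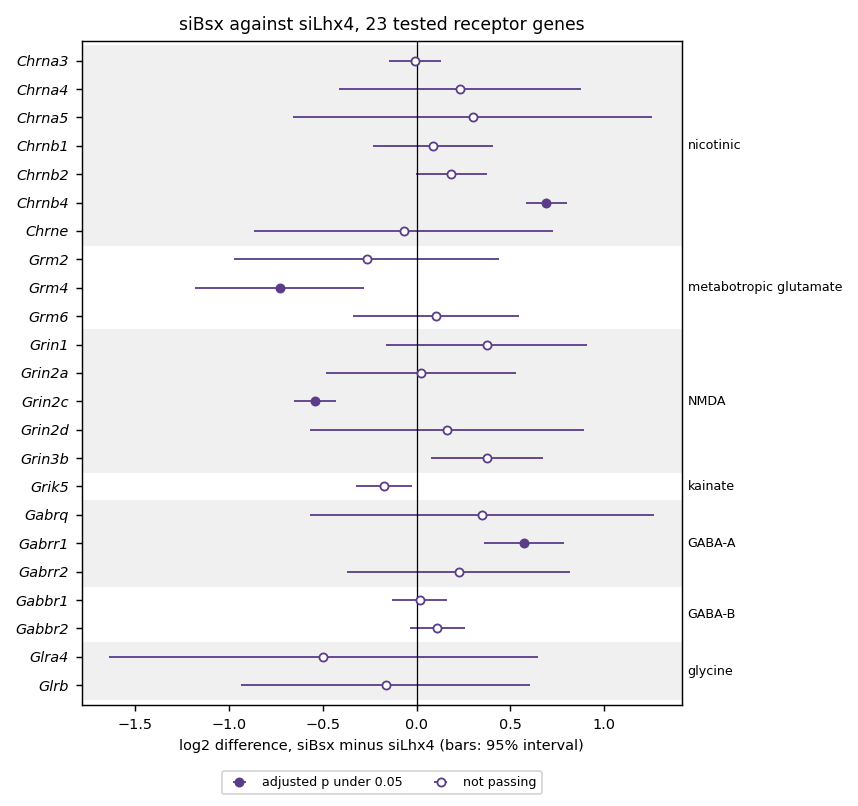
Log2 differences between siBsx and siLhx4 (siBsx minus siLhx4) of 23 tested receptor genes with 95% intervals; filled symbols passed an adjusted p of 0.05 in the rebuilt Wald test. Of the symbols that passed, Chrnb4 and Gabrr1 lie above 0 and Grin2c and Grm4 below.

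The precision of the fold changes differed with the level of the gene. In the siBsx comparison, the SE of the log2 fold change lay between 0.055 and 0.11 for the 10 receptor genes at or above 500 normalized counts and between 0.13 and 0.59 for the 17 other tested genes. The 41 genes without an adjusted p had SEs from 0.46 to 3.97. The lack of an adjusted p does not show that these 41 genes did not change.

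**Figure D4:**
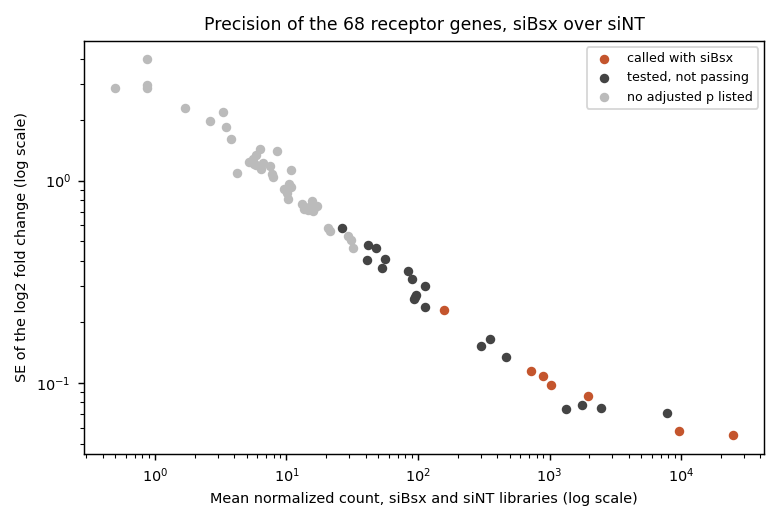
SE of the log2 fold change of siBsx over siNT against the mean normalized count of the siBsx and siNT libraries for the 68 receptor genes, both axes on a log scale. The SE ranges from 3.97 for Chrna6, at a mean of 0.877, to 0.055 for Chrnb4. Of the 7 called genes, 6 have a mean of at least 500.

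Genes that assemble, anchor or modify these receptors were taken from lists of partners. Of 26 tested partners (auxiliary subunits and scaffolds) of ionotropic glutamate receptors, 1 rose and 5 fell with siBsx (median log2 fold change -0.15), and 1 rose and 1 fell with siLhx4 (median 0.05). These are 23.1% and 7.69% of the list, against 17.2% and 17.7% of all genes tested with siBsx and siLhx4. The AMPA receptor protein Cacng2 (stargazin), the postsynaptic scaffolds Dlg4 (PSD-95) and Homer2, the cerebellin Cbln1 and the secreted olfactomedin Olfm1 fell with siBsx, with log2 fold changes of -0.30, -0.14, -0.22, -1.14 and -0.49 in the authors' deposited table. Homer1, which links group I metabotropic receptors to calcium stores, rose by 0.35 there. With siLhx4, Cacng2, Dlg4, Homer2, Cbln1 and Homer1 had log2 fold changes of -0.20, 0.04, -0.20, 0.10 and 0.19 in the authors' deposited table. None of these siLhx4 values passed. Between the knockdowns, Cacng2, Homer2 and Homer1 did not differ past the threshold (rebuilt Wald test, adjusted p = 0.454, 0.912 and 0.274). Dlg4 and Cbln1 were lower in siBsx than in siLhx4 (rebuilt Wald test, adjusted p = 0.000367 and 0.00317). Neto2, an auxiliary protein of kainate receptors, had log2 fold changes of -0.12 with siBsx and -0.58 with siLhx4 in the authors' deposited tables, and the siLhx4 value passed (adjusted DESeq2 p = 0.604 and 2.53e-05). Olfm1 rose by 0.57 with siLhx4 in the authors' deposited table, against its fall with siBsx (rebuilt Wald test between them, adjusted p = 1.06e-71). Its group means were 5725 normalized counts in siBsx, 11982 in siLhx4 and 8067 in siNT. The summed astrocyte, fibroblast and mural markers had the same order, though not every marker did, and their part was not tested. Of 14 tested partners of GABA and glycine receptors, 1 rose and 3 fell with siBsx (28.6%, against 17.2% of all genes tested), and 1 rose and 2 fell with siLhx4 (21.4%, against 17.7%). Gephyrin (Gphn), the scaffold of inhibitory synapses, did not pass. Sdcbp (syntenin), a scaffold protein, fell by 0.16 with siBsx and by 0.52 with siLhx4 in the authors' deposited tables. Trak2, a motor adaptor, rose by 0.34 with siBsx and fell by 0.33 with siLhx4 in the authors' deposited tables, and its relative Trak1 fell by 0.14 and rose by 0.17.

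Of 10 tested nicotinic partners, 0 rose and 5 fell with siBsx (median -0.31), and with siLhx4 2 rose and 2 fell (median -0.05). The 9 without Stmn1, a tubulin-binding protein that is no receptor modulator, held 0 that rose and 5 that fell with siBsx (55.6%, against 17.2% of all genes tested), and 1 that rose and 2 that fell with siLhx4 (33.3%, against 17.7%). Ric3, a chaperone of nicotinic receptor assembly, fell by 0.30 ± 0.079 with siBsx in the authors' deposited table (adjusted DESeq2 p = 0.00178), where Chrnb4 and Chrnb2 rose. Lypd6, a membrane-anchored modulator, fell with both siRNAs, by 0.33 with siBsx and by 0.60 with siLhx4 in the authors' deposited tables. Agrin (Agrn) and Dok7, known for clustering receptors at the neuromuscular junction, fell with siBsx by 0.58 and 0.78, and Dok7 rose by 0.52 with siLhx4, in the authors' deposited tables. Dok7 averaged 464 normalized counts in siBsx, 1149 in siLhx4 and 799 in siNT. This order of groups was also seen in the summed mural and astrocyte markers, though not in every one of them. Most of the mural sum was Myh11, and the part of these markers was not tested. Musk, the kinase of the same junction pathway, fell by 0.78 with siLhx4 in the authors' deposited table.

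Among 15 tested genes of transmitter synthesis and breakdown, 1 rose and 2 fell with siBsx (median -0.02; 20%, against 17.2% of all genes tested), and 1 rose and 4 fell with siLhx4 (median -0.02; 33.3%, against 17.7%). Serine racemase (Srr), which makes the NMDA co-agonist D-serine, fell by 0.26 with siLhx4 in the authors' deposited table. The aspartate aminotransferases Got1 and Got2 fell by 0.14 each with siLhx4 there. With siBsx, the serine hydroxymethyltransferase Shmt2 fell by 0.46 and Gcsh of the glycine cleavage system rose by 0.25 in the authors' deposited table. Glutamine synthetase (Glul), which is also on the astrocyte list, averaged 1218 normalized counts in siBsx, 2147 in siLhx4 and 1688 in siNT. The GABA-synthesizing enzyme Gad1 and the acetylcholine-synthesizing enzyme Chat stayed under 20 normalized counts in every group.

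**Figure D5:**
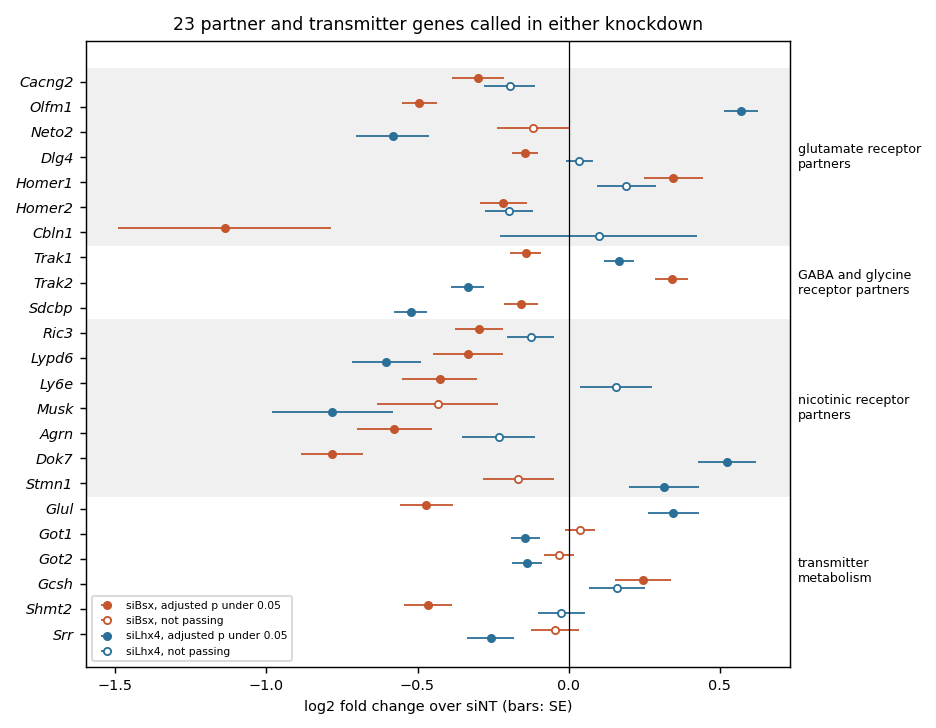
Log2 fold changes over siNT, with SE bars, of 23 receptor partner and transmitter genes called in either knockdown, siBsx and siLhx4 drawn in different colours; filled symbols passed an adjusted p of 0.05. Olfm1, Trak1, Trak2, Dok7 and Glul passed with both siRNAs on opposite sides of 0.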

How the data were processed

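RNA of 9 libraries (siBsx, siLhx4 and siNT, 3 each) was read from a stranded total RNA kit after ribosomal RNA depletion, per the labels' protocols. Per the submitters' processing notes, the tools were STAR 2.5.4a, Subread 1.5.2 with featureCounts and DESeq2 1.16.1, on build rn6. How strand and multiply matching reads were treated, and the annotation, are not given in the sources used here. The labels do not say whether replicates were separate cultures or animals, so p-values measure the spread between these libraries.

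Per the file legends, the authors deposited 1 table of all genes per knockdown. Its deposited signal values are the authors' means of normalized counts over both groups, and its deposited log2 values are their fold changes over siNT. SEs and a deposited score, the Wald statistic, are given in the siBsx table only. The deposited p-values are unadjusted and Benjamini-Hochberg adjusted over 14876 genes. The planned count model was not run because the tables hold no values per library for these genes. Library totals were not used here.

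Group means were solved from the mean and fold change, and the siNT mean from the siLhx4 table. The ratio of the siNT means from both tables had a median of 1.00. SEs for siLhx4 were obtained by dividing the log2 fold change by the normal quantile that its p-value implies. For siBsx against siLhx4, a Wald test was built with the dispersion solved from the siBsx table. It was checked on simulated counts with dispersions known to the test. That check therefore does not cover error in estimated dispersions. Intervals are at 95%. Lhx4 per library was compared on log2 values with a pseudocount of 1. Levels per coding length, as planned, were not computed, since no transcript lengths were given. Python 3.11.15, pandas 2.3.3 and scipy 1.17.1 were used.

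The receptor genes, lists and alternatives were chosen with earlier results of these data known. Results for some genes are not reported here. Otherwise, named were all called receptor genes, the member of each family with the highest siNT mean, 7 further subunits and the called genes of the lists, and other genes were named after their values were seen. All 68 symbols matched the RefSeq gene table of GRCr8, and 47 had a promoter.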

Additional observations from a re-analysis of the deposited data

How the results depend on the processing

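The centred fold changes, the stricter minimum mean of 50 normalized counts and the 2 other choices of dispersion left every count of called receptor genes as it was. Without the filter on low means, adjusted over 26851 genes (25902 in the rebuilt comparison), Chrnb2 with siLhx4, Grm6 with siBsx and 1 gene between the knockdowns were lost. That left 2 receptor genes higher with siLhx4, 3 higher with siBsx and 2 higher in siBsx than in siLhx4. When p-values were taken from a t distribution with 4 degrees of freedom, 0 receptor genes passed with siLhx4 or with siBsx in either direction, and of all genes 0 and 36 passed. The target Lhx4 was thus among the genes that did not pass with siLhx4 at this setting. At an unadjusted DESeq2 p under 0.05, 13 (siBsx) and 12 (siLhx4) of the 68 receptor genes passed, 19.1% and 17.6%, against 15.97% and 16.6% of all genes. In the rebuilt comparison 1 higher (Chrnb4) and 1 lower (Grin2c) passed at 4 degrees of freedom. With 6 degrees of freedom, 0 higher and 2 lower (Chrnb4 among them) passed with siLhx4, 0 higher and 1 lower (Grin2c) with siBsx, and 2 higher and 1 lower in the rebuilt comparison, which lost Grm4 and 1 other gene. Of all genes, 795 passed with siBsx, 699 with siLhx4 and 1307 between them at 6 degrees of freedom, and 291 between them at 4, against 2558, 2626 and 3380 with the normal. Both numbers of degrees of freedom follow from library counts and not from the authors' fit. No paired analysis was possible because the tables hold no values per library for these genes, and leaving out replicates was not run for the same reason.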

Other observations

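Of the 41 receptor genes without an adjusted p, 3 had an unadjusted p under 0.05 with siBsx (7.32%) and 1 with siLhx4 (2.44%), where 2.33% and 2.49% of all genes without an adjusted p had one. Grm7, a group III metabotropic receptor, averaged 2.61 normalized counts in siLhx4 and 14.9 in siNT (unadjusted DESeq2 p = 0.0113 in the authors' deposited table). Gabra4, a GABA-A subunit, averaged 14.6 in siBsx and 2.07 in siNT (unadjusted DESeq2 p = 0.0482 in the authors' deposited table). Glra3, an alpha subunit of glycine receptors, had a mean over the siBsx and siNT libraries of 3.29 in the siBsx table and was listed at a mean of 0 in the siLhx4 table (unadjusted DESeq2 p = 0.0142 with siBsx in the authors' deposited table).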
